A study of Mus musculus with 18 samples.

Results

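The genes described here are 10 genes by which macrophage states are commonly told apart in mice: Slc7a2, Arg1, Nos2 and Ass1 of arginine use, Acod1 of itaconate synthesis, Chil3 and Retnla, and the receptors Mrc1, Cd163 and Pparg. They were chosen by symbol, through the Ensembl gene IDs of the count files, and all 10 were found among 37620 gene IDs. All 10 also passed the filter on low counts, which kept 14849 genes. Macrophages that meet microbial or interferon signals switch on Nos2, which turns arginine into nitric oxide, and Acod1, which makes itaconate. Macrophages that meet interleukin 4 or 13 switch on Arg1, which turns arginine into ornithine and urea, together with Chil3, Retnla and Mrc1. In tumours such genes are often expressed side by side, and Arg1 in myeloid cells is known for depriving T cells of arginine.

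RNA of 18 tumour samples was sequenced, 3 libraries in each of 6 groups. MO4 cells, which are B16F10 mouse melanoma cells that carry ovalbumin, had been given to C57BL/6 mice on day 0 as an injection of 100000 cells under the skin of each hindlimb. Control mice received no further cells. In the pMC groups, cells called iPSC-pMCs (iPSC stands for induced pluripotent stem cell) were put beside the right tumour on days 5, 6 and 7, with 1000000 cells each time, and the IFN-alpha-pMC groups received cells called IFN-α-iPSC-pMCs in the same way. The left tumour of each treatment was the one away from the injections, and tumour RNA was taken on day 11. The groups are named below by side and treatment. All mice were of 1 strain and carried 2 tumours, and the labels used here state no age. Nothing in the labels states that the 3 samples of a group are 3 animals, so p-values measure only the spread between these samples. RNA of injected cells that were still in a right tumour and RNA of host cells cannot be told apart in these counts. In whole tumours, more cells of a type and more RNA per cell cannot be told apart either.

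Library totals ran from 14.35 to 23.43 (in units of 1000000 counts). A count of 0 allows up to 0.128 to 0.209 per 1000000 counts of the unscaled library total (counting error only). CPM stands for counts per 1000000 counts after scaling of library sizes. The melanocyte lineage markers summed to 29865.9 to 44734.1 CPM, with none at 0 in any library, as the tumour label says. In 3 libraries an earlier look at these data had found low correlation with the other libraries of their group: left IFN-alpha-pMC 1, right IFN-alpha-pMC 3 and right control 3 (mean Spearman correlation 0.968, 0.963 and 0.945). Right control 2, at 0.958, was lower than left IFN-alpha-pMC 1 and right IFN-alpha-pMC 3 but was not in that set. All other libraries were at 0.968 or above. Where a call among the 10 genes changed without the first 3, both values are given.

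On the right, beside which the cells were injected, 6 of the 10 genes rose in IFN-alpha-pMC tumours against control tumours and none fell. They were Arg1, Chil3, Acod1, Nos2, Slc7a2 and Pparg, with fold changes of 36.1, 15.3, 8.18, 7.06, 4.96 and 2.58. Of all genes tested, 8.78% were higher and 2.01% lower in this comparison by the same test. Both the nitric oxide enzyme Nos2 and the arginase Arg1 were thus among the genes that rose. In each of the 6 genes, every right IFN-alpha-pMC library lay above every right control library, an ordering seen for 13.3% of all genes tested. All 6 still passed when any 1 library of these 2 groups was left out. The median log2 fold change of the 10 genes was 2.57, and that of all genes tested was -0.03. The test was edgeR's quasi-likelihood F test (two-sided), with Benjamini-Hochberg adjustment over the 14849 genes and calls at an adjusted p under 0.05. Every fold change ± SE below is on the log2 scale.

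**Figure D1:**
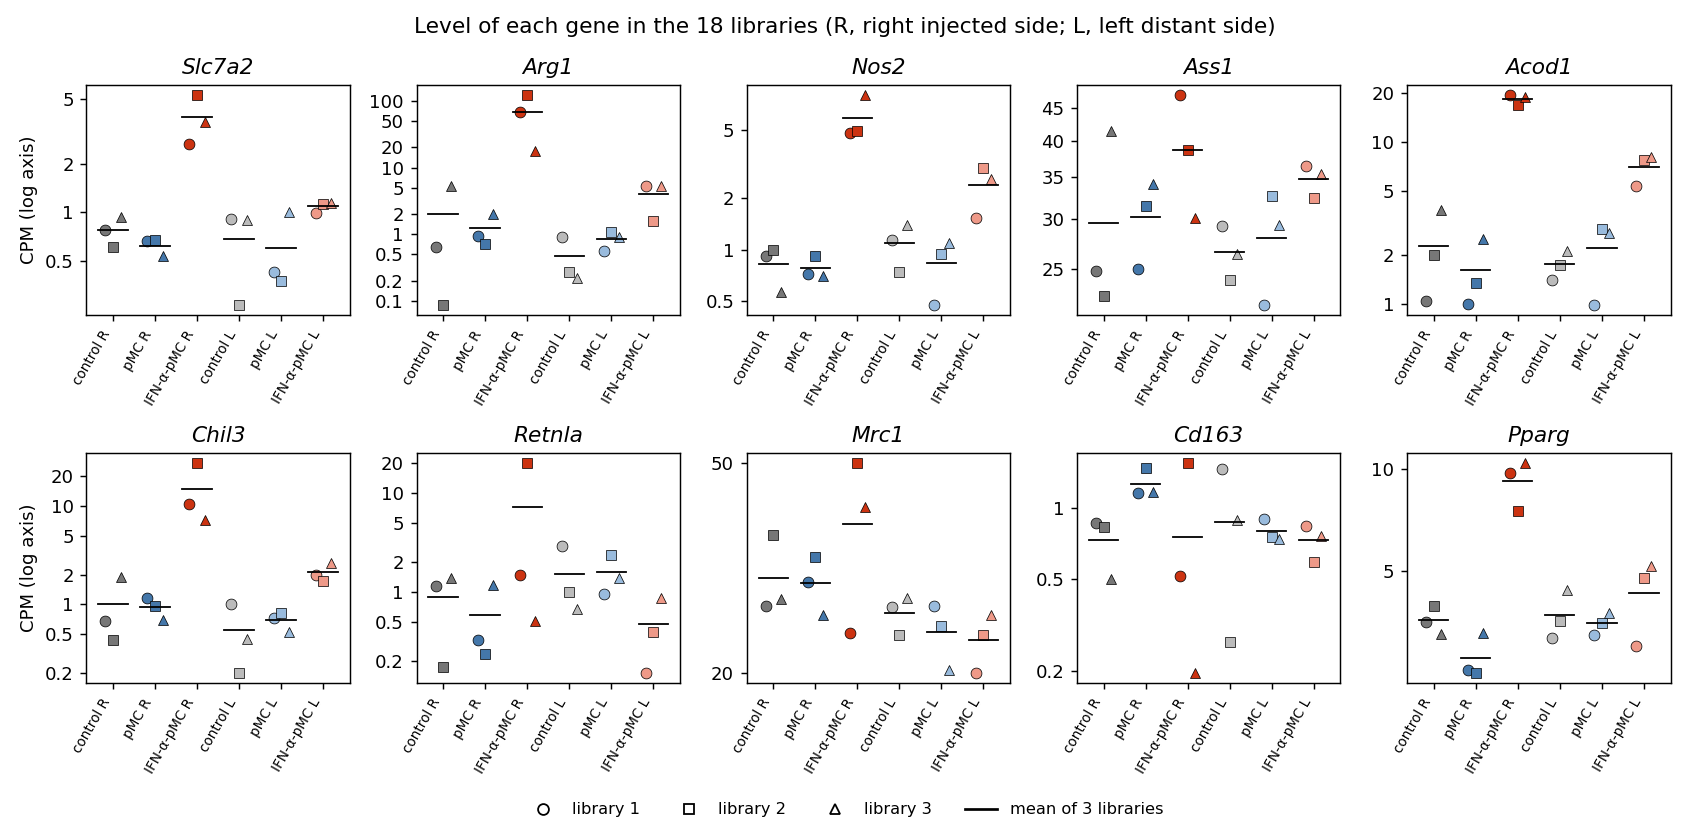
Level of each of the 10 genes in CPM (log axis) in the 18 libraries; points are libraries, shaped by library number, and bars are means of 3 libraries. The red points of right IFN-alpha-pMC stand above all right control points in Slc7a2, Arg1, Nos2, Acod1, Chil3 and Pparg, whereas in Retnla they spread from below to far above the highest control.

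Arginine enters macrophages largely through the cationic amino acid transporter encoded by Slc7a2 (ENSMUSG00000031596). Its level was 0.777, 0.611 and 0.938 CPM in right control libraries 1, 2 and 3. It was 0.664, 0.672 and 0.535 CPM in right pMC and 2.65, 5.27 and 3.63 CPM in right IFN-alpha-pMC. The control and pMC libraries overlapped, and the IFN-alpha-pMC libraries lay above both. These values gave log2 fold changes of 2.31 ± 0.40 against control (adjusted p = 0.00087) and 2.61 ± 0.41 against pMC (adjusted p = 0.000405). The counts behind this are few, 46 over the 3 right control libraries and 237 over the 3 right IFN-alpha-pMC libraries. Skeletal muscle also expresses Slc7a2, and the muscle values are given further on.

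Arg1 (ENSMUSG00000019987), the arginase of macrophages and liver, had the highest level per kilobase of the 10 genes in right IFN-alpha-pMC, with a wide spread between libraries. Right control libraries 1, 2 and 3 held 0.64, 0.0872 and 5.31 CPM. Right pMC libraries held 0.94, 0.72 and 2.03 CPM, and right IFN-alpha-pMC libraries held 67.3, 120.5 and 17.8 CPM. Within the controls library 3 stood high, and within IFN-alpha-pMC library 3 stood low, yet the groups did not overlap. The log2 fold change was 5.18 ± 0.93 against control (95% interval 3.21 to 7.14, adjusted p = 0.00112). It was 5.80 ± 0.96 against pMC (adjusted p = 0.000645). Without the 3 libraries named above the value against control was 7.96 (adjusted p = 2.67e-07), and without right control 3 alone it was 7.55. When only the 2 groups compared were fitted, the fold change was 5.12 and did not pass the test (adjusted p = 0.079).

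Nos2 (ENSMUSG00000020826) encodes inducible nitric oxide synthase, the other main user of arginine in macrophages. Its level was 0.914, 1.00 and 0.563 CPM in right controls, and 0.719, 0.911 and 0.696 CPM in right pMC. In right IFN-alpha-pMC it was 4.84, 4.97 and 8.02 CPM. Library 3, the lowest of its group in Arg1, was the highest in Nos2. Nos2 thus rose by 2.82 ± 0.36 against control (adjusted p = 7.03e-05) and 2.93 ± 0.37 against pMC (adjusted p = 5.98e-05).

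Set side by side per kilobase of exon, Arg1 exceeded Nos2 in all 3 right IFN-alpha-pMC libraries. The ratio of their levels (CPM per kb) was 27.6, 48.1 and 4.39 there. In right controls it was 1.39, 0.172 and 18.7, so that library 3 of the controls lay within the range of the treated libraries and the groups overlapped. Right pMC libraries were at 2.59, 1.56 and 5.79. On the left the ratio was 1.58, 0.72 and 0.317 in controls, 2.34, 2.24 and 1.66 in pMC, and 6.93, 1.04 and 3.96 in IFN-alpha-pMC. The balance of the 2 transcripts therefore varied among libraries of 1 group by as much as between several groups. Mean levels in right IFN-alpha-pMC were 30.8 ± 23.1 CPM per kb for Arg1 and 1.35 ± 0.408 CPM per kb for Nos2 (SD, n = 3).

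**Figure D2:**
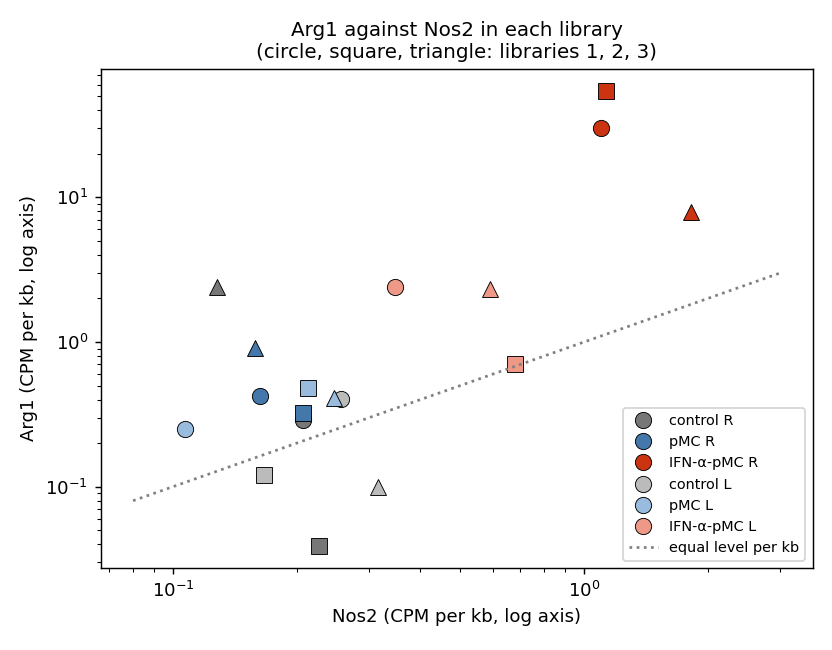
Arg1 level against Nos2 level in each of the 18 libraries, both in CPM per kb on log axes; colours are groups, shapes are library numbers and the dotted line marks equal levels. The 3 right IFN-alpha-pMC libraries occupy the upper right corner, at Arg1 to Nos2 ratios of 27.6, 48.1 and 4.39, and right control 3 (ratio 18.7) is the control point with high Arg1 and low Nos2.

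Ass1 (ENSMUSG00000076441), argininosuccinate synthase, takes part in rebuilding arginine from citrulline. It had the highest level per kilobase of the 10 genes over all libraries, 13 CPM per kb against 5.77 for Arg1, the next. Right control libraries held 24.8, 22.6 and 41.4 CPM, right pMC 25, 31.5 and 34.1 CPM, and right IFN-alpha-pMC 47.2, 38.7 and 30.1 CPM. The groups overlapped, with control 3 high and IFN-alpha-pMC 3 low. The log2 fold change was 0.39 ± 0.22 against control (95% interval -0.09 to 0.86, adjusted p = 0.321). It was 0.81 (adjusted p = 0.00164) without the 3 libraries named above and 0.70 (adjusted p = 0.0193) without right control 3 alone. In these fits 8175 and 3946 of all genes tested were called, against 1601 with all libraries. Against pMC the log2 fold change of Ass1 was 0.36 ± 0.22 (adjusted p = 0.432), and 0.46 (adjusted p = 0.0454) without the 3 libraries. There the count of all genes called went from 1497 to 4287. The call for Ass1 thus rested on which libraries were used.

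Promoter sequences of Acod1, Chil3 and Retnla are shown next because the first 2 rose with Arg1 and Nos2, whereas Retnla, which is usually read as a marker of the same state as Chil3, did not rise in every library. Each sequence is the 250 bases before the transcription start in RefSeq, build GRCm38.p6, written 5′ to 3′ on the gene's strand. The windows lie at chr14:103046762-103047011 (plus strand) for Acod1, chr3:106167565-106167814 (minus strand) for Chil3 and chr16:48842359-48842608 (plus strand) for Retnla. Capitals mark matches to motifs named after the text.
Acod1: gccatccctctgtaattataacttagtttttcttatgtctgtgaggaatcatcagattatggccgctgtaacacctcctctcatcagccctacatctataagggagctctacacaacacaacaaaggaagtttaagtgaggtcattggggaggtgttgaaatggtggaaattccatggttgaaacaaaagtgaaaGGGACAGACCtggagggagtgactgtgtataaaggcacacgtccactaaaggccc
Chil3: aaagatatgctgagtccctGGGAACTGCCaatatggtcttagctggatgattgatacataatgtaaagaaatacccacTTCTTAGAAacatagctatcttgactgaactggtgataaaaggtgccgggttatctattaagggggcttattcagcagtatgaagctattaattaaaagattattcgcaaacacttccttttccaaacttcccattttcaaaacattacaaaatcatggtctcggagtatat
Retnla: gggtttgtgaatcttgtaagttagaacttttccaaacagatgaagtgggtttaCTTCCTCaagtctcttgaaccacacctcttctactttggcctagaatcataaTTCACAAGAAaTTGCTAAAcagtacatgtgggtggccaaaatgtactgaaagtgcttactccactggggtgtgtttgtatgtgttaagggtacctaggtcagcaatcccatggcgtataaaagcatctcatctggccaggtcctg
The capitals in Acod1 are a kappa-B match (GGGANNNNCC) at bases -55 to -46 from the start. Those in Chil3 are a kappa-B match at -231 to -222 and a match to the interferon gamma-activated site (GAS, TTCNNNGAA) at -172 to -164. Those in Retnla are a PU.1-type match (GAGGAAG, here on the other strand) at -197 to -191, a STAT6-type match (TTCNNNNGAA) at -145 to -136 and a C/EBP-type match (TTGCNNAA) at -134 to -127. No 2 of these matches overlap. Among 32851 promoter windows of this length the kappa-B letters occurred on either strand in 17.6%, GAS in 7.02%, STAT6-type in 5.85%, C/EBP-type in 9.56% and PU.1-type in 10.6%. An interferon-response element (GAAANNGAAA, 2.98% of windows) and an AP-1 motif (TGANTCA, 6.75%) were searched as well and have no capitals in these 3 windows. In windows not shown, the kappa-B letters also matched in Ass1, Mrc1, Cd163 and Pparg. Of these genes only Pparg was called on the right, so the kappa-B letters did not set apart the genes that rose. PU.1-type letters also matched in Mrc1 and C/EBP-type letters in Pparg. The matches describe letters only, and binding was not measured. RefSeq windows were matched for 7 of the 10 genes, and Arg1, Nos2 and Slc7a2 had no entry.

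Acod1 (ENSMUSG00000022126) encodes the mitochondrial enzyme that makes itaconate from cis-aconitate in activated macrophages. Its level was 1.05, 2.01 and 3.81 CPM in right controls, and 0.996, 1.34 and 2.52 CPM in right pMC. It was 19.4, 16.9 and 19.1 CPM in right IFN-alpha-pMC. The 3 treated libraries lay close together, unlike those of Arg1, and far above the rest. Against these, Acod1 rose by 3.03 ± 0.43 against control (adjusted p = 0.000158) and 3.51 ± 0.45 against pMC (adjusted p = 6.39e-05).

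Chil3 (ENSMUSG00000040809), a chitinase-like protein secreted by alternatively activated macrophages and by some monocytes and neutrophils, was at 0.686, 0.436 and 1.88 CPM in right controls. Right pMC libraries held 1.16, 0.959 and 0.696 CPM, and right IFN-alpha-pMC libraries held 10.4, 27.1 and 7.15 CPM. As in Arg1, library 2 was the highest and library 3 the lowest of the treated group. Chil3 rose by 3.94 ± 0.57 against control and 3.97 ± 0.57 against pMC (adjusted p = 0.000169 in both). Its close relative Chil4 had a count of 0 in all 18 libraries, and read pairs that align to more than 1 place were not counted.

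Retnla (ENSMUSG00000061100), which encodes a small secreted protein induced by interleukin 4 and 13, differed from Chil3. Right controls held 1.14, 0.174 and 1.38 CPM, right pMC 0.332, 0.24 and 1.18 CPM, and right IFN-alpha-pMC 1.49, 19.7 and 0.513 CPM. A single library, right IFN-alpha-pMC 2, was far above the rest. Library 1 of that group lay just above the highest control, and library 3 lay within the range of the controls. Against control the log2 fold change was 3.02 ± 1.06 and missed the threshold (95% interval 0.78 to 5.27, adjusted p = 0.0826). It passed without the 3 libraries named above (3.95, adjusted p = 0.00527), a set that keeps library 2, and without right IFN-alpha-pMC 3 alone (3.51, adjusted p = 0.0146). In these fits 8175 and 3105 of all genes tested were called, against 1601 with all libraries. Over the fits that left out 1 library the value ran from 0.17 to 3.51. Against pMC it passed, at 3.61 ± 1.11 (adjusted p = 0.0483), although the groups overlapped. Without right IFN-alpha-pMC 2 that value was 0.77 (adjusted p = 0.741), and it was also lost without any 1 of the right pMC libraries (adjusted p = 0.166, 0.189 and 0.0595 without libraries 1, 2 and 3).

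Mrc1 (ENSMUSG00000026712), the mannose receptor CD206, was above all right controls in 2 of the 3 treated libraries and below them in the other. Right controls held 26.8, 36.5 and 27.6 CPM, right pMC 29.8, 33.2 and 25.8 CPM, and right IFN-alpha-pMC 23.8, 49.9 and 41.3 CPM. The groups overlapped, and the log2 fold change was 0.34 ± 0.22 against control (95% interval -0.12 to 0.80, adjusted p = 0.386) and 0.37 ± 0.22 against pMC (adjusted p = 0.388). Without right IFN-alpha-pMC 1 the value against pMC was 0.62 and passed (adjusted p = 0.0481).

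Cd163 (ENSMUSG00000008845), the haemoglobin-haptoglobin scavenger receptor of resident macrophages, was low throughout. Right controls held 0.869, 0.829 and 0.50 CPM, right pMC 1.16, 1.49 and 1.18 CPM, and right IFN-alpha-pMC 0.512, 1.56 and 0.197 CPM. The 3 pMC libraries lay above the 3 controls, as 1.68% of all genes tested did, and the IFN-alpha-pMC libraries spanned both. The log2 fold change of IFN-alpha-pMC was -0.04 ± 0.57 against control (95% interval -1.25 to 1.16, adjusted p = 0.978) and -0.82 ± 0.56 against pMC (adjusted p = 0.473). These rest on 42 to 74 counts per right group, and the interval against control takes in both a doubling and a halving.

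Pparg (ENSMUSG00000000440), a lipid-sensing nuclear receptor of macrophages and fat cells, was the sixth gene that rose. Right controls held 3.52, 3.93 and 3.25 CPM, right pMC 2.54, 2.49 and 3.27 CPM, and right IFN-alpha-pMC 9.72, 7.54 and 10.4 CPM. The treated libraries lay above all others on the right. Pparg rose by 1.37 ± 0.22 against control (adjusted p = 0.00049) and 1.74 ± 0.23 against pMC (adjusted p = 7.69e-05). The summed adipocyte markers were 33.5 to 61.1 CPM in right controls and 21.5 to 39.5 CPM in right IFN-alpha-pMC. Of 4 tested adipocyte markers 0 were called between these groups, where 8.78% of all genes tested rose and 2.01% fell. The part of fat cells in the Pparg values was not tested.

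Against right pMC, then, 7 of the 10 genes were higher in right IFN-alpha-pMC and none was lower, where 8.88% of all genes tested were higher and 1.21% lower. In 6 of the 7 the groups did not overlap, an ordering seen for 16.2% of all genes, and Retnla was the exception. The comparisons with control and with pMC share the right IFN-alpha-pMC libraries. Between pMC and control on the right, 0 of the 10 genes passed, where 0% of all genes tested passed. At an unadjusted p under 0.05 the count was 0 as well, and DESeq2 called 0 of the 10. The values against control were -0.62 ± 0.96 for Arg1 (95% interval -2.64 to 1.40), -0.11 ± 0.39 for Nos2 (-0.93 to 0.72) and -0.48 ± 0.45 for Acod1 (-1.42 to 0.47). They were -0.04 ± 0.60 for Chil3 (-1.30 to 1.23) and -0.37 ± 0.23 for Pparg (-0.85 to 0.12). The signs for Arg1, Chil3 and Acod1 depended on right control 3: without it Arg1 was at 1.75, Chil3 at 0.74 and Acod1 at 0.08, none of them called. Without the 3 libraries named above 0 of the 10 genes passed as well, but 5067 of all genes tested did, against 0 with all libraries. Intervals of this width do not show that pMC left these genes as they were. For Arg1 and Chil3 they take in doublings and halvings.

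**Figure D3:**
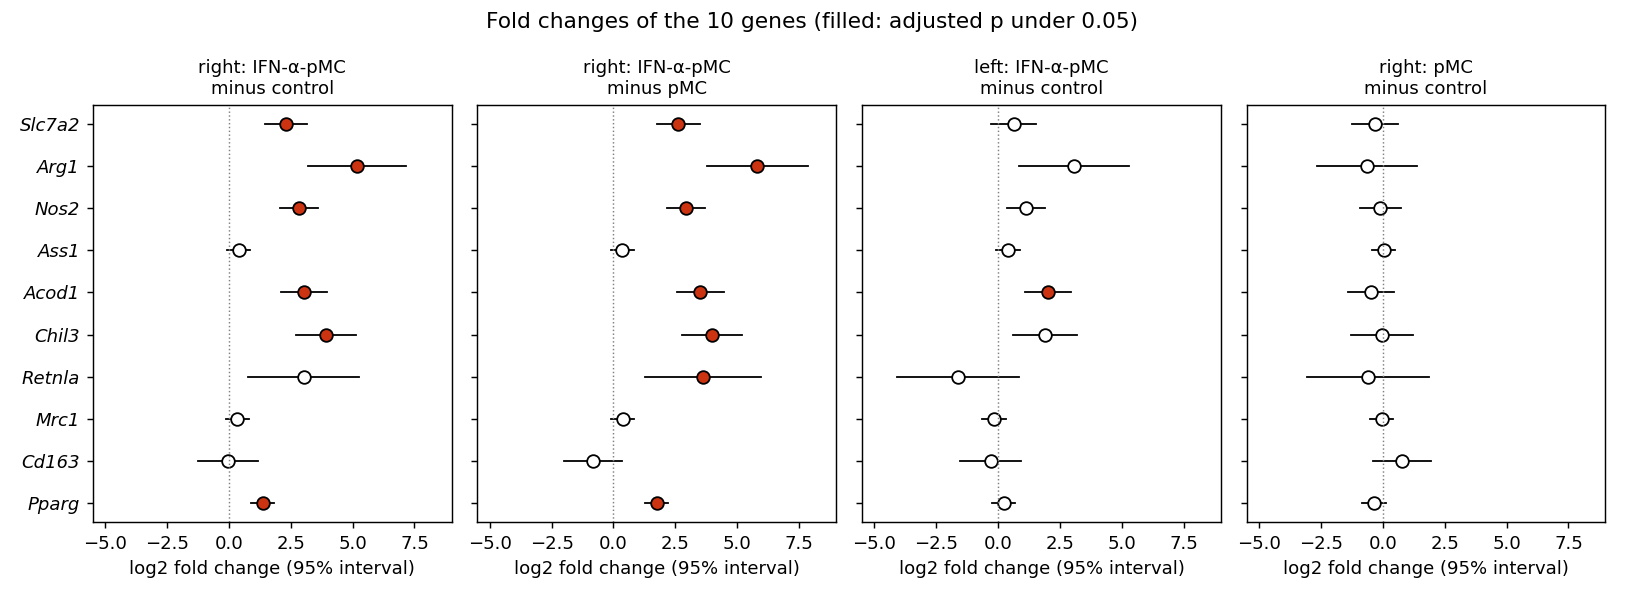
Log2 fold change of each of the 10 genes with its 95% interval in 4 comparisons; filled points passed edgeR's quasi-likelihood test at an adjusted p under 0.05. Right IFN-alpha-pMC shows 6 filled points against control and 7 against pMC, left IFN-alpha-pMC shows 1 against control (Acod1), and right pMC against control shows none.

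On the left, away from the injections, 1 of the 10 genes rose in IFN-alpha-pMC against control, and none fell, where 4.05% of all genes tested were higher and 2.6% lower. This was Acod1, at 5.36, 7.77 and 8.04 CPM against 1.41, 1.75 and 2.12 CPM in left controls and 0.988, 2.89 and 2.75 CPM in left pMC. The IFN-alpha-pMC libraries lay above all others on that side. The log2 fold change against control was 2.0 ± 0.44 (adjusted p = 0.0203). It missed the threshold without any 1 of the 3 left control libraries (adjusted p = 0.0973, 0.0819 and 0.0771 without libraries 1, 2 and 3) and without left IFN-alpha-pMC 2 (0.0685), with log2 fold changes of 1.82 to 2.13.

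Nos2, Arg1 and Chil3 were higher in all 3 left IFN-alpha-pMC libraries than in all 3 left controls but did not pass the test. Nos2 was at 1.53, 3.0 and 2.61 CPM against 1.13, 0.738 and 1.39 CPM (log2 fold change 1.13 ± 0.36, adjusted p = 0.0606). Arg1 was at 5.36, 1.57 and 5.22 CPM against 0.903, 0.268 and 0.223 CPM (3.07 ± 1.06, adjusted p = 0.0692). Chil3 was at 1.99, 1.72 and 2.66 CPM against 1.02, 0.201 and 0.446 CPM (1.90 ± 0.61, adjusted p = 0.0606). In Arg1, left IFN-alpha-pMC 2 was the low library. With Acod1, Slc7a2 and Ass1, 6 of the 10 genes showed no overlap in this direction, an ordering seen for 25.8% of all genes tested. Of the 10 genes, 4 had an unadjusted p under 0.05, and DESeq2 called 4. DESeq2 called 2837 of all genes here, where edgeR called 987. Without the 3 libraries named above, Arg1 (2.80, adjusted p = 0.00563), Nos2 (1.34, 0.00696) and Chil3 (1.92, 0.0114) passed too. In that fit 4331 of all genes tested were called, against 987 with all libraries.

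Slc7a2 on the left was at 0.995, 1.13 and 1.14 CPM in IFN-alpha-pMC, against 0.903, 0.268 and 0.892 CPM in controls and 0.43, 0.377 and 1.00 CPM in pMC (log2 fold change against control 0.64 ± 0.43, adjusted p = 0.273). Ass1 was at 36.5, 32.4 and 35.4 CPM against 29.3, 24 and 26.4 CPM in controls and 21.9, 32.7 and 29.4 CPM in pMC (0.39 ± 0.23, adjusted p = 0.212). Both lay above the controls and below the threshold of the test. Retnla went the other way: left IFN-alpha-pMC held 0.153, 0.393 and 0.87 CPM, left controls 2.88, 1.01 and 0.669 CPM and left pMC 0.945, 2.38 and 1.39 CPM. Its log2 fold change was -1.63 ± 1.17 against control (adjusted p = 0.302) and -1.65 ± 1.16 against pMC (adjusted p = 0.339). Against pMC the groups did not overlap, which 21.9% of all genes showed in that direction. Pparg (2.99, 4.77 and 5.16 CPM in left IFN-alpha-pMC), Mrc1 (20, 23.6 and 25.8 CPM) and Cd163 (0.842, 0.59 and 0.761 CPM) overlapped with left controls, at log2 fold changes of 0.22 ± 0.23, -0.17 ± 0.22 and -0.29 ± 0.58.

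Against left pMC, 2 of the 10 genes rose in left IFN-alpha-pMC, and none fell, where 2.71% of all genes tested were higher and 1.14% lower. Nos2 had a log2 fold change of 1.53 ± 0.37 (adjusted p = 0.0342), and Acod1 one of 1.69 ± 0.43 (adjusted p = 0.0398). Left pMC libraries held 0.473, 0.941 and 1.09 CPM of Nos2. Both calls were lost without any 1 of the left pMC libraries and without left IFN-alpha-pMC 2 or 3. Arg1 (2.26 ± 0.95, adjusted p = 0.13) and Chil3 (1.63 ± 0.58, adjusted p = 0.0914) missed the threshold. Without the 3 libraries both passed, at adjusted p = 0.0191 and 0.0204, in a fit that called 4142 of all genes tested, against 572 with all libraries. Between left pMC and left control 0 of the 10 genes passed (0% of all genes tested), 0 had an unadjusted p under 0.05 and DESeq2 called 0. The same 3 counts held between the right and left controls and between right and left pMC, where again 0% of all genes tested passed edgeR's test. The log2 difference of Arg1 between right and left controls was 1.98 ± 1.11 with all libraries and -0.40 without the 3 named above.

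Within the IFN-alpha-pMC treatment, 5 of the 10 genes were higher in right than in left tumours, and none was lower, where 2.49% of all genes tested were higher and 0.0404% lower. They were Arg1 (4.10 ± 0.87, adjusted p = 0.0155), Chil3 (2.80 ± 0.53, 0.00882), Slc7a2 (1.81 ± 0.39, 0.0186), Nos2 (1.31 ± 0.34, 0.0487) and Pparg (1.09 ± 0.22, 0.0125). Acod1 lay higher in all 3 right libraries and missed the threshold (1.38 ± 0.40, adjusted p = 0.0926). No overlap between the sides was seen in 6 of the 10 genes, against 10.5% of all genes tested. None of the 5 calls held without left IFN-alpha-pMC 1, where the adjusted p ran from 0.0518 for Chil3 to 0.223 for Nos2. Nos2 missed the threshold without any 1 of the 6 libraries (log2 fold change 1.00 to 1.51), and Arg1 did so also without right IFN-alpha-pMC 2 (3.41, adjusted p = 0.0772), left IFN-alpha-pMC 2 (3.69, 0.0939) or left IFN-alpha-pMC 3 (4.35, 0.0576). When 1 of these 6 libraries was left out, Slc7a2 kept its call only without right IFN-alpha-pMC 1 (adjusted p from 0.0584 to 0.094 otherwise). Chil3 lost its call also without left IFN-alpha-pMC 2 (adjusted p = 0.0595) and Pparg also without right IFN-alpha-pMC 3 (0.0806). Without the 3 libraries of low correlation Arg1, Chil3 and Slc7a2 kept their calls, Nos2 (0.77, adjusted p = 0.2) and Pparg (0.77, 0.0571) lost theirs, and Retnla (4.02, 0.0419) gained one. In that fit 863 of all genes tested were called, against 375 with all libraries. Each mouse carried a right and a left tumour, and it is not known whether same-numbered libraries come from 1 mouse, so that these tests treat the sides as unrelated samples. In each of the 6 genes that rose on the right against control, the mean level was highest in right and next in left IFN-alpha-pMC. The 4 groups without IFN-alpha-pMC followed, and among these no comparison within a side or within a treatment passed the test. For Arg1 the order of means was 68.5 ± 51.4 CPM in right and 4.05 ± 2.15 CPM in left IFN-alpha-pMC, 2.01 ± 2.87 in right control, 1.23 ± 0.704 in right pMC, 0.847 ± 0.261 in left pMC and 0.465 ± 0.38 CPM in left control (SD, n = 3).

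Whether the response to IFN-alpha-pMC differed between the sides was tested as the right effect minus the left effect, each against the control of its side. None of the 10 genes passed (0% of all genes tested passed), 5 had an unadjusted p under 0.05 and DESeq2 called 0. The differences on the log2 scale were 1.69 ± 0.51 for Nos2 (95% interval 0.61 to 2.77, adjusted p = 0.348), 1.15 ± 0.32 for Pparg (0.48 to 1.81, adjusted p = 0.262) and 1.67 ± 0.59 for Slc7a2 (0.42 to 2.92, adjusted p = 0.516). For Arg1 the difference was 2.11 ± 1.46 (-0.97 to 5.19, adjusted p = 0.743). Without the 3 libraries named above it was 5.16 for Arg1 (adjusted p = 0.0239) and 3.08 for Chil3 (adjusted p = 0.0344), and 2 of the 10 genes passed. In that fit 761 of all genes tested were called, against 0 with all libraries. For Ass1 the difference was 0.00 ± 0.32 (-0.67 to 0.67) with all libraries. The larger fold changes on the right were therefore not shown to differ from those on the left when all libraries were used.

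The genes around arginine were mostly not called, and the share that rose was near that of all genes. In a list of 27 genes of arginine and polyamine metabolism, 23 were tested, and 2 rose and 0 fell in right IFN-alpha-pMC against control (median log2 fold change -0.05), where 8.78% of all genes tested rose. Gatm, which uses arginine for creatine synthesis, went from 11.6 ± 6.97 to 27.1 ± 4.27 CPM (1.23 ± 0.35, adjusted p = 0.0298). Gch1, the first enzyme in the synthesis of the tetrahydrobiopterin that Nos2 needs, went from 4.69 ± 2.59 to 9.39 ± 1.88 CPM (1.01 ± 0.31, adjusted p = 0.0475). Oat, which turns ornithine toward proline and glutamate, was at -0.08 ± 0.15, and Slc3a2, a subunit of amino acid transporters, at 0.18 ± 0.17. Further genes were picked after their values were seen. Odc1, which turns ornithine into the polyamine putrescine, was at 0.10 ± 0.29 (adjusted p = 0.882) and Asl, which completes the resynthesis of arginine after Ass1, at 0.05 ± 0.18 (adjusted p = 0.902). Further members that leaned lower also missed the threshold: the arginine transporter Slc7a1 (-0.82 ± 0.27, adjusted p = 0.0631) and the nitric oxide synthases Nos3 (-1.25 ± 0.41, 0.0651) and Nos1 (-1.11 ± 0.40, 0.0937). The arginase Arg2 had 1 to 21 counts per library and was not tested. No gene of the list was called against right pMC or on the left.

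Both lists of activation genes shifted upward on the right. Of 25 tested genes of classical activation, 18 rose and 0 fell against right control, with a median log2 fold change of 1.66. Of all genes tested, 8.78% rose in this comparison. Tnf, an inflammatory cytokine, went from 0.909 ± 0.22 to 8.45 ± 1.38 CPM (3.22 ± 0.35, adjusted p = 1.78e-05), and Irf5, a transcription factor of inflammatory macrophages, from 10.6 ± 1.73 to 46.5 ± 4.33 CPM (2.13 ± 0.18, adjusted p = 3.05e-06). The chemokine Ccl5 (2.31 ± 0.19) and the transcription factor Irf8 (1.84 ± 0.21) rose too, whereas Sod2 (0.17 ± 0.15) and Cd38 (0.11 ± 0.14) were not called. T cells also make Tnf and Ccl5, and 8 of 8 T cell markers were higher in this comparison.

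Of 23 tested genes of alternative activation, 10 rose and 0 fell (8.78% of all genes tested rose), with a median log2 fold change of 1.27. Il1rn, which encodes the interleukin 1 receptor antagonist, went from 2.46 ± 1.67 to 25.7 ± 1.15 CPM (3.42 ± 0.39, adjusted p = 2.81e-05), and Tgm2, a transglutaminase, from 11.5 ± 0.47 to 59.3 ± 16.9 CPM (2.37 ± 0.29, adjusted p = 3.92e-05). The scavenger receptor Msr1 (2.44 ± 0.35) and the transcription factor Egr2 (1.91 ± 0.32) rose as well. Selenop (-0.01 ± 0.43) and Fn1 (0.28 ± 0.49) were not called. Il1rn, Msr1 and Tgm2 are not specific to the interleukin 4 response, and Il1rn is also induced by inflammatory signals.

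Of 22 tested upstream signals, 8 rose and 0 fell (median log2 fold change 0.51), where 8.78% of all genes tested rose. Ifng, the main inducer of Nos2 from T and NK cells, went from 0.674 ± 0.515 to 7.1 ± 0.947 CPM (3.35 ± 0.40, adjusted p = 3.94e-05). Spi1, which encodes the myeloid factor PU.1, rose by 1.72 ± 0.16, the receptor subunit Il4ra by 1.61 ± 0.22 and the adaptor Myd88 by 1.06 ± 0.13, while Stat3 (0.14 ± 0.23) and Hif1a (-0.13 ± 0.19) were not called. The ligands of Il4ra were almost not counted: Il4 had 0 to 3 counts and Il13 0 to 4 counts per library, and neither was tested (both were picked after their counts were seen). Against right pMC the counts of genes that rose were 19 in classical activation, 10 in alternative activation and 10 among upstream signals, and again 0 fell. Of all genes tested, 8.88% rose against right pMC.

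On the left most of the calls were in classical activation. Of the tested genes 16 of 25 rose in classical activation, 3 of 23 in alternative activation and 4 of 22 among upstream signals against left control, and 0 fell in any of them. Of all genes tested, 4.05% rose in this comparison. Cxcl9, an interferon-gamma-induced chemokine, went from 86.7 ± 11.7 to 288.4 ± 94.2 CPM (1.73 ± 0.24, adjusted p = 0.00187), and Ifng from 0.643 ± 0.141 to 3.08 ± 0.697 CPM (2.26 ± 0.42, adjusted p = 0.00961). Gbp2 (1.46 ± 0.22), Ccl5 (1.40 ± 0.19) and Irf1 (1.07 ± 0.18) rose, all of them interferon-responsive. The 3 genes of alternative activation were Il1rn (2.1 ± 0.40), Msr1 (1.47 ± 0.34) and Tgm2 (1.07 ± 0.28). The difference between the lists was not tested. Between right and left IFN-alpha-pMC, 4 of 25, 2 of 23 and 5 of 22 tested genes of the 3 lists were higher on the right. Of all genes tested, 2.49% were higher there. The higher list genes included Irf5 (1.33 ± 0.18), Il1rn (2.0 ± 0.37) and Il4ra (1.21 ± 0.22).

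Markers of some cell types rose in the same comparisons as the 10 genes, and those of others did not. In right IFN-alpha-pMC against control, 0 of 8 endothelial markers rose and 1 fell (median log2 fold change -0.36). Of 8 melanocyte lineage markers 0 were called (median 0.00). Of all genes tested, 8.78% rose and 2.01% fell. Of 15 monocyte and macrophage markers, 11 rose in right IFN-alpha-pMC against control, where 8.78% of all genes tested rose. The median log2 fold change of the 15 was 1.45. Among those that rose were Ly6c2 (4.06 ± 0.31), Ccr2 (2.22 ± 0.33) and Cd68 (1.80 ± 0.20), whereas Mertk (-0.32 ± 0.17) and Lyz2 (-0.33 ± 0.52) were not called. The summed level of the 15 markers was 847.8 to 1848.4 CPM in right control, 979.4 to 1699.1 in right pMC and 2169.6 to 2479.0 CPM in right IFN-alpha-pMC. On the left it was 885.9 to 1098.7, 1043.7 to 1600.6 and 1511.2 to 2276.5 CPM in the same order. There 8 of 15 rose against control, where 4.05% of all genes tested rose. Neutrophils also express Chil3 and, when activated, Arg1. Of the 12 neutrophil markers 4 passed the filter, and up to 8 were at 0 in a library. Of the 4 tested, 1 rose against right control (Csf3r, 1.55 ± 0.28) and 3 rose against right pMC, where 8.78% and 8.88% of all genes tested rose. The sum was 6.26 to 7.75 CPM in right control, 3.54 to 5.89 in right pMC and 13.4 to 33.6 CPM in right IFN-alpha-pMC. It was highest in right IFN-alpha-pMC 2 (33.6 CPM), the library of its group with the most Arg1, Chil3 and Retnla. The part of neutrophils in the values of Chil3 and Arg1 was not tested.

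Skeletal muscle markers had a higher summed level in IFN-alpha-pMC libraries. Of 13 tested, 1 rose against control on the right and 3 on the left, where 8.78% and 4.05% of all genes tested rose. The count of 1 on the right is near the share of all genes. Against pMC, 7 of 13 rose on the right and 2 of 13 on the left, and none fell. Of all genes tested, 8.88% and 2.71% rose in these comparisons. The muscle markers summed to 30.9 to 1080.5 CPM in right control, 83.5 to 211.4 in right pMC and 1917.5 to 3916.0 CPM in right IFN-alpha-pMC. On the left the sums were 9.67 to 349.7, 9.71 to 113.9 and 696.2 to 1400.2 CPM in the same order. With the muscle score as a covariate the 6 genes called on the right against control still passed, Arg1 at 4.85 (adjusted p = 0.0331). On the left Acod1 kept its fold change against control (1.97) but not its call (adjusted p = 0.113). The share of read pairs in no annotated feature was 4.04 to 6.12% in all IFN-alpha-pMC libraries and 6.87 to 12.21% in all others. Its part in the results cannot be told apart from that of the treatment.

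Since macrophage markers rose as well, the level of each gene was set against them, as log2 CPM minus the mean log2 CPM of the 15 markers in the same library. That mean was 6.67 ± 0.03 in right IFN-alpha-pMC and 5.16 ± 0.47 in right control (SD, n = 3). On this scale Arg1 was 4.33 higher in right IFN-alpha-pMC than in right control, Chil3 2.24, Acod1 1.61 and Nos2 1.18, each with no overlap between the groups. Of all genes tested, 2.22% lay higher without overlap on this scale. Slc7a2 (0.62), Retnla (0.24) and Pparg (-0.18) overlapped, so that Pparg rose no more than this mean of log2 values did. The 15 markers did not rise alike, and Pparg was not set against their summed CPM. Ass1 (-1.10) and Mrc1 (-1.23) lay lower without overlap, as did 81.2% of all genes tested, so that nothing particular to these 2 is read from it. Cd163 (-1.79) overlapped. An exact permutation test of 3 libraries against 3 cannot give a p below 0.1, so that no such difference can pass 0.05. Against right pMC the same 4 genes and Slc7a2 (0.97) lay higher without overlap, where 3.46% of all genes did. Ass1, Mrc1 and Cd163 (-2.45) lay lower without overlap, where 86.4% did.

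On the left, Acod1 was the gene that stayed above left control relative to the markers without overlap (1.03 higher, where 1.89% of all genes lay so). Ass1 (-0.52), Mrc1 (-1.09), Retnla (-2.37) and Pparg (-0.73) lay below without overlap, as did 67.8% of all genes. Arg1 (1.97), Chil3 (1.03), Nos2 (0.14), Slc7a2 (-0.19) and Cd163 (-0.93) overlapped. Relative to the markers, right IFN-alpha-pMC stood above left IFN-alpha-pMC without overlap in Arg1 (3.08), Chil3 (1.77), Slc7a2 (0.91) and Acod1 (0.63), where 2.03% of all genes did. Ass1 (-0.64) stood below without overlap, where 61.7% did, and Nos2 (0.53) overlapped.

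**Figure D4:**
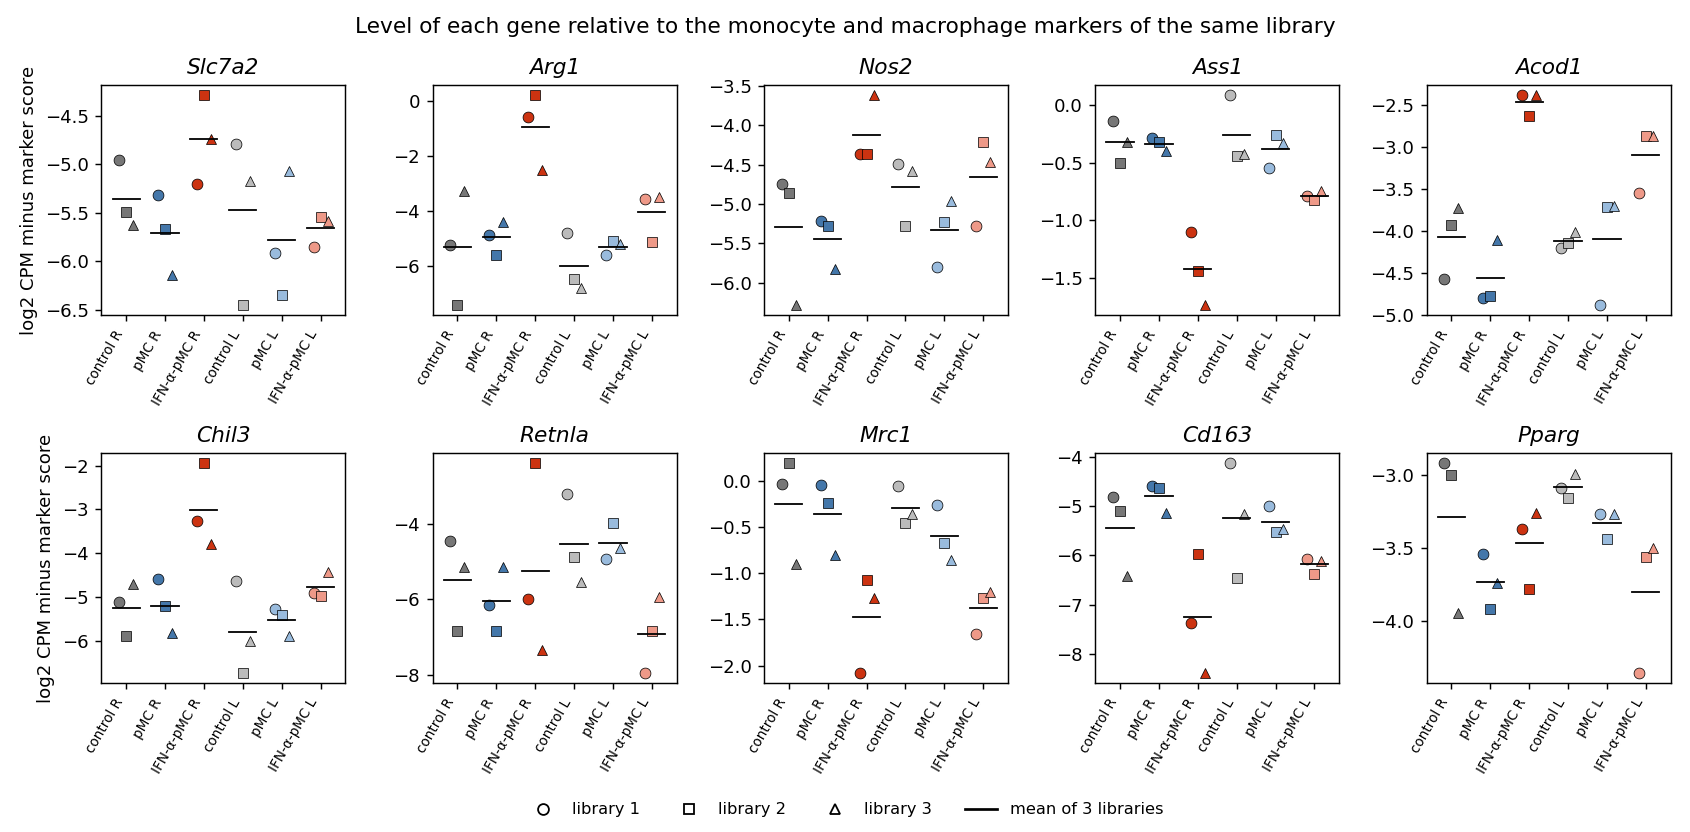
Log2 CPM of each of the 10 genes minus the mean log2 CPM of 15 monocyte and macrophage markers in the same library, in the 18 libraries; points are libraries and bars are means of 3. Right IFN-alpha-pMC points stand above all right control points in Arg1, Nos2, Acod1 and Chil3 and below them in Ass1 and Mrc1.

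Across the 18 libraries the 10 genes did not vary as 1 block. Correlations of log2 CPM over these libraries are given as a description, since all 18 share the treatment groups and the muscle and macrophage differences above. Arg1 and Chil3 went together most closely (Pearson r = 0.96), followed by Slc7a2 with Chil3 (0.91). Nos2 went with Acod1 and with Pparg (0.90 each) and less closely with Arg1 (0.74). Cd163 and Pparg ran against each other (-0.46). Of all genes tested, those most like Arg1 were Ccr1 (0.97), Mmp13 (0.96) and Chil3. Those most like Nos2 were Rnf19b, Irf5 and Icam1 (0.95 each), and those most like Acod1 were Fxyd5, Fgr (0.98 each) and Slamf7 (0.97). Slc7a2 was most like Thy1 (0.93), Il4ra and Adam8 (0.92 each), Pparg most like Ly6e (0.96), Apbb1ip and H2-Q4 (0.95 each), and Chil3 most like Arg1, Limd2 (0.96 each) and Sema3a (0.95). The closest genes were less alike for Ass1 (Upp1 and Qpct at 0.89, Fkbp1b at 0.88), Mrc1 (Cxcr3 at 0.78, Unkl and Mid1 at 0.77), Retnla (Alg1 at 0.77, Gm6286 at 0.75, Mgl2 at 0.73) and Cd163 (Adat1 at 0.74, Halr1 at 0.72 and ENSMUSG00000086869 at 0.71).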

How the data were processed

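Each library had 1 deposited file with a count of read pairs for every Ensembl gene ID, not normalized, and the mRNA kit was a stranded one, per the labels' protocols. The submitters' processing notes name build mm9 and the tools DESeq2 1.20.0, HTSeq 0.10.0, HISAT2 2.1.0, Trimmomatic 0.36 and CASAVA 1.8.2. As to the annotation release and the strand setting (not given in the sources used here), reads of antisense genes may have been mixed. Summary rows of the counter entered neither library sizes nor tests. Symbols were matched for 32897 of 37620 IDs with GENCODE M21 (GRCm38), whose exon lengths gave CPM per kb.

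Groups came from the sample titles. Counts were tested with edgeR 4.0.16 in R 4.3.3 (quasi-likelihood F test, TMM scaling, filterByExpr at its defaults, 1 model of 6 group means over 18 libraries, 12 residual degrees of freedom, biological coefficient of variation 23.7%). Comparisons were the treatments within a side, the sides within a treatment and the difference of sides. The scripts were tested on simulated data. Log2 CPM used a prior count of 2. No 2 libraries of a group were identical or agreed within sampling noise.

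The 10 genes and all lists were chosen with earlier results of these data known. All 10 genes are named. Of each list of arginine, activation and signal genes, at most 4 called genes with the smallest p are named per comparison. The 2 uncalled genes of highest mean CPM may be named too. For each of the 10, the 3 genes of highest correlation are named. A few others are marked as picked after their values were seen. Cell type markers were named without a fixed rule. The level relative to macrophage markers was also chosen after seeing values. Alternatives were DESeq2 1.42.0, RLE scaling, no filter, the compared groups alone, the replicate number as a block, a muscle covariate, and leaving out libraries.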

Additional observations from a re-analysis of the deposited data

How the results depend on the processing

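Of 1360 log2 fold changes of the 10 genes under the alternatives, 1276 kept their side of the threshold, 52 lost a call, 32 gained one and 0 called values changed sign. Among those that were called neither way, 79 changed sign. Against right control the number of the 10 genes called was 6 or 7 without any 1 library, and against right pMC 6 to 8. For left IFN-alpha-pMC against control, the count of 1 became 4 with DESeq2, 3 without the filter, 3 with the compared groups alone, 4 without the 3 libraries of low correlation, 0 with the muscle covariate, and 0 to 1 without any 1 library. Against left pMC the count of 2 became 4 with the compared groups alone, 4 without the 3 libraries, 0 with the muscle covariate and 0 to 2 without any 1 library. Between right and left IFN-alpha-pMC the count of 5 ran from 0 to 5 without any 1 library, and was 7 with DESeq2 and 4 with RLE scaling, the muscle covariate, the compared groups alone or without the 3 libraries. The difference of sides went from 0 to 2 called without the 3 libraries. The cause was not tested.

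The count of all genes called moved more: right IFN-alpha-pMC against control had 1601, which became 582 with the compared groups alone, 975 with the muscle covariate, 8175 without the 3 libraries and 1090 to 3946 without any 1 library, and left IFN-alpha-pMC against control had 987, which became 2837 with DESeq2 and 86 to 494 without any 1 library. Right pMC against control had 0, which became 5067 without the 3 libraries. Against right pMC the 1497 genes became 785 with the covariate and 4287 without the 3 libraries. Without the 3 libraries, 4331 genes were called in left IFN-alpha-pMC against control, 4142 against left pMC and 761 for the difference of sides.

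Right and left libraries share numbers in their titles, and whether a number stands for 1 mouse is not known. Same-numbered libraries deviated together with r from -0.25 to 0.60, and 5 of 9 right libraries were most alike to the left library of their own number, so the numbers were not used as pairs. With the replicate number as a block, 6 of the 10 genes were called against right control, 6 against right pMC (Retnla 3.32, adjusted p = 0.139), 1 and 2 in the left comparisons and 6 between right and left IFN-alpha-pMC (Acod1 1.46, adjusted p = 0.0173). Slc7a2, Cd163 and Retnla rest on few counts in most groups, which limits what could be detected for them. Arg1, Nos2 and Chil3 also had few counts in the groups without IFN-alpha-pMC. Over 3 libraries they summed to 101, 52 and 55 in right control and to 24, 56 and 29 in left control.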
